A study of Mus musculus with 18 samples.

Results

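Small leucine-rich proteoglycans were examined in the mandible of mouse embryos through the 10 genes that encode Bgn, Dcn, Aspn, Fmod, Lum, Omd, Prelp, Epyc, Ogn and Chad, chosen by gene symbol from the 38243 genes counted. The mutant embryos carried 1 Fgfr2 allele with the S252W change of Apert syndrome, a craniosynostosis syndrome, and are called Fgfr2+/S252W. Their littermates without it are called Fgfr2+/+. The labels spell these genotypes Fgfr2S252W and WT, and all embryos were female, C57BL/6 and at E16.5. From 3 embryos of each genotype, mandibular bone, Meckel's cartilage (MC, the rod of cartilage along which the lower jaw forms) and mandibular condylar cartilage (the growth cartilage of the jaw joint) were taken by laser capture microdissection, which gave 18 RNA-seq libraries in 6 groups of 3. The study asked how the mutation affects bone and cartilage of the lower jaw, and the same tissues of the same embryos also allow the tissues to be compared.

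These proteoglycans are small secreted proteins built around a row of leucine-rich repeats. They lie on the surface of collagen fibrils, where they affect fibril thickness and spacing, and several also bind growth factors of the TGF-β family. They are grouped into classes by sequence: Bgn, Dcn and Aspn form class I, Fmod, Lum, Omd and Prelp class II, Epyc and Ogn class III, and Chad belongs to class IV. Class I members other than Aspn carry chondroitin or dermatan sulfate chains, and class II members such as Fmod and Lum carry keratan sulfate. In the skeleton Bgn and Omd are known from mineralized matrix, and Prelp, Epyc and Chad from cartilage.

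Libraries held between 8218548 and 15585778 fragments assigned to genes, and the 10 genes together took between 7630 and 38467 of them. Levels are given as FPKM, the fragments of a gene divided by its exon length and by library size, after scaling library sizes by the trimmed mean of M-values (TMM), so that levels of different genes can be set side by side. Replicates are separate embryos. The gene Gm42418, which overlaps a ribosomal RNA repeat, took 24.1 to 39.4% of fragments in MC and 5.58 to 20.2% elsewhere, and the TMM factors of MC ran from 0.491 to 1.09 against 0.896 to 1.48 elsewhere. Fgfr2 itself stood at 36.9 to 53.4 FPKM in Fgfr2+/+ bone and 38.9 to 44.2 FPKM in Fgfr2+/S252W bone, and counts per gene do not show the allele.

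The labelled tissues were checked against marker genes, summed as CPM, which is counts relative to library size after TMM. The 8 osteoblast markers summed to 8590 to 11600 CPM in bone, and the 10 chondrocyte markers to 12700 to 15400 CPM in condylar cartilage. Condylar libraries also held 3060 to 11500 CPM of the osteoblast markers, highest in replicate 3 of each genotype (7390 CPM in Fgfr2+/+ and 11500 CPM in Fgfr2+/S252W). MC libraries held little of the chondrocyte markers: 379 to 951 CPM in Fgfr2+/+ and 654 to 2190 CPM in Fgfr2+/S252W embryos, with all 10 markers detected in each group. Bglap, a gene of mature osteoblasts, and Ihh, a gene of prehypertrophic chondrocytes, were at 0 in all 6 MC libraries. Col2a1, the main collagen of cartilage, reached 41.6 to 1410 FPKM in MC against 3790 to 4990 FPKM in condylar cartilage. The list for tendon, ligament and perichondrium, in which Postn had the highest FPKM, summed to 1370 to 1760 CPM in MC, against 1020 to 1750 CPM in bone and 355 to 500 CPM in condylar cartilage. The libraries labelled MC thus carried connective-tissue markers at a level above their chondrocyte markers in 5 of 6 cases, and are called MC by their label. Replicate 1 of each genotype stood apart there: Fgfr2+/+ MC replicate 1 had the fewest chondrocyte markers (379 CPM) and the most osteoblast markers (1180 CPM), and Fgfr2+/S252W MC replicate 1 the most chondrocyte markers (2190 CPM). In bulk samples such as these, fewer cells of a type and less RNA per cell cannot be told apart.

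Of the 10 genes, 9 passed the filter of more than 1 FPKM in at least 50% of libraries, together with 11469 genes in all. Epyc did not, and is described by its levels and fragments. Aspn, Omd and Ogn are neighbours on chromosome 13 of GRCm38, at 49544443 to 49567557, 49582766 to 49592609 and 49608071 to 49624500, all on the plus strand and all inside Cenpp, a gene on the minus strand with which they share 0 exon bases. Dcn (97479500 to 97518162), Lum (97565501 to 97572703) and Epyc (97644068 to 97682454) lie in a row on chromosome 10, and Prelp (133910304 to 133921414) and Fmod (134037254 to 134048277) are neighbours on chromosome 1. Bgn is on chromosome X, at 73483602 to 73495933, and Chad on chromosome 11, at 94565047 to 94569127, inside Acsf2 on the opposite strand. Counting did not use strand. Prelp shares 9.68% of its exon bases with Gm15851 and Epyc 12.3% with Gm10754, so part of their fragments could belong to those genes or go uncounted, whereas the other 8 share none.

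The upstream sequences of the chromosome 13 neighbours, which were all lowest in condylar cartilage, and of Prelp and Chad, which were lower in bone than in condylar cartilage, follow as the 250 bases before the RefSeq start of each gene (GRCm38.p6, written along the gene's own strand). RefSeq sequences were found for 8 of the 10 genes. Capitals mark any match, on either strand, to 1 of 5 motifs: TATAAA (the TATA box), TGTGGT (a RUNX core), ACAAAG (a SOX core), GGAATG (a TEAD core) or TGANTCA (AP-1, with N as any base).
Aspn, chr13:49544193-49544442, plus strand: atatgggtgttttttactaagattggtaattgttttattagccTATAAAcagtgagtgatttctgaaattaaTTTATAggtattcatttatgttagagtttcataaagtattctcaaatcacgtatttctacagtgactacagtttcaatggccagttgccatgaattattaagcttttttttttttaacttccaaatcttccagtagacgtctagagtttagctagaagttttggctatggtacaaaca
Omd, chr13:49582212-49582461, plus strand: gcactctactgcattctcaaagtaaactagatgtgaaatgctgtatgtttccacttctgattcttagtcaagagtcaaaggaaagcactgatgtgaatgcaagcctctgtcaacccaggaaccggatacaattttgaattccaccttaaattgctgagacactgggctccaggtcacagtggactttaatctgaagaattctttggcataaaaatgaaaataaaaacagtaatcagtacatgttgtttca
Ogn, chr13:49607765-49608014, plus strand: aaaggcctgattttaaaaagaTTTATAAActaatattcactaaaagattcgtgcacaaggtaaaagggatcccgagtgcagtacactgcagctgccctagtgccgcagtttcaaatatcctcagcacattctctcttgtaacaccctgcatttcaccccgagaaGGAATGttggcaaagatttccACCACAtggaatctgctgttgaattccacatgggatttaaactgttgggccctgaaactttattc
Prelp, chr1:133921402-133921651, minus strand: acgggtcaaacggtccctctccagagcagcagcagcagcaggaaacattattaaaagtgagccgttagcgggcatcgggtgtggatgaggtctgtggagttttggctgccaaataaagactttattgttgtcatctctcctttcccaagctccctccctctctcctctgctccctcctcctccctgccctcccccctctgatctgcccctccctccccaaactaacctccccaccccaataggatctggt
Chad, chr11:94564797-94565046, plus strand: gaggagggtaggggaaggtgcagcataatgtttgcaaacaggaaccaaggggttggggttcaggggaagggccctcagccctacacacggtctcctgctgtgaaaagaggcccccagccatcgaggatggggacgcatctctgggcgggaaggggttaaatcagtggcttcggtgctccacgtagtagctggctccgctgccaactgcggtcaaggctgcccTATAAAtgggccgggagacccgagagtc
The Aspn sequence held 2 TATAAA matches, from 207 to 202 bases before the start on the plus strand and from 178 to 173 bases before it on the other strand. The Ogn sequence also held 2, from 229 to 224 and from 227 to 222 bases before the start, on opposite strands and overlapping each other. It further held 1 TGTGGT match (65 to 60 bases before the start) and 1 GGAATG match (86 to 81 bases before it), and these do not overlap other motifs. The Chad sequence held 1 TATAAA match, from 28 to 23 bases before the start, and Omd and Prelp held none of the 5 motifs. Among all 32851 upstream sequences of this length, 12.4% held TATAAA, 14.0% TGTGGT, 16.5% ACAAAG, 12.6% GGAATG and 6.75% TGANTCA. GC content was 30.0% for Aspn, 38.4% for Omd, 42.0% for Ogn, 55.6% for Prelp and 60.4% for Chad, against a median of 52.4%. A match here is a description of letters only.

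The family had a different make-up in each tissue. In bone, Lum (237 ± 28.0 FPKM, SD, n = 6), Dcn (208 ± 15.1 FPKM) and Bgn (206 ± 30.6 FPKM) stood at like levels with overlapping ranges, followed by Aspn (63.8 ± 43.2 FPKM), Omd (50.8 ± 28.7 FPKM), Ogn (46.3 ± 28.7 FPKM) and Fmod (21.1 ± 7.32 FPKM). Prelp (5.39 ± 0.878 FPKM) and Chad (4.12 ± 1.66 FPKM) came last in bone among the 9 genes kept and overlapped. In MC, Bgn led at 265 ± 61.8 FPKM, above the ranges of all others, followed by Lum (119 ± 14.5 FPKM), Aspn (105 ± 20.0 FPKM) and Ogn (86.6 ± 17.7 FPKM), each overlapping the next. Dcn (26.4 ± 7.18 FPKM), Chad (20.2 ± 19.7 FPKM), Fmod (17.7 ± 14.2 FPKM), Omd (12.1 ± 12.5 FPKM) and Prelp (8.72 ± 6.69 FPKM) were low in MC and overlapped one another. Condylar cartilage was led by Lum (205 ± 23.7 FPKM) and Prelp (160 ± 44.9 FPKM), then Bgn (101 ± 47.3 FPKM), Chad (44.7 ± 45.2 FPKM), Fmod (22.5 ± 8.83 FPKM) and Dcn (18.9 ± 13.1 FPKM). Omd (3.25 ± 2.93 FPKM), Aspn (1.71 ± 2.49 FPKM) and Ogn (1.45 ± 0.812 FPKM) were the lowest of the 9 there. Epyc, the gene not kept, stood at 0.00333 FPKM in bone, 0.955 FPKM in MC and 1.48 FPKM in condylar cartilage (means of 6 libraries). The order of the means differed by genotype: in Fgfr2+/S252W bone Omd (33.8 FPKM) stood above Aspn (30.9 FPKM), against 67.8 and 96.7 FPKM in Fgfr2+/+ bone. Bgn (188 FPKM) stood below Dcn (219 FPKM) in Fgfr2+/S252W bone, against 223 and 198 FPKM in Fgfr2+/+ bone. The ranges of Lum (238 to 260 FPKM), Dcn (211 to 230 FPKM) and Bgn (185 to 193 FPKM) did not overlap in Fgfr2+/S252W bone. In condylar cartilage of Fgfr2+/+ embryos Fmod (22.8 FPKM) stood above Chad (18.9 FPKM), against 22.1 and 70.5 FPKM in Fgfr2+/S252W embryos. The Dcn mean (25.9 FPKM) also stood above that of Fmod in Fgfr2+/S252W condylar cartilage, through replicate 3 alone (44.4 against 11.3 FPKM). In Fgfr2+/+ MC the Aspn mean (109 FPKM) stood above that of Lum (107 FPKM), against 100 and 130 FPKM in Fgfr2+/S252W MC. That rested on Fgfr2+/+ MC replicate 1 (137 against 113 FPKM). Lum was the higher in Fgfr2+/+ MC replicates 2 and 3, as in all Fgfr2+/S252W MC libraries. By the mean, Omd (15.9 FPKM) stood above Fmod (13.6 FPKM) and Chad (12.3 FPKM) in Fgfr2+/+ MC, through replicate 1 alone (37.1 FPKM). In Fgfr2+/+ MC replicates 2 (5.29 FPKM) and 3 (5.18 FPKM) Omd was the lowest of the 9. Its mean in Fgfr2+/S252W MC was also the lowest, at 8.24 FPKM against 21.8 FPKM for Fmod and 28.1 FPKM for Chad. Among single Fgfr2+/S252W MC libraries, Omd was the lowest of the 9 only in replicate 1.

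**Figure D1:**
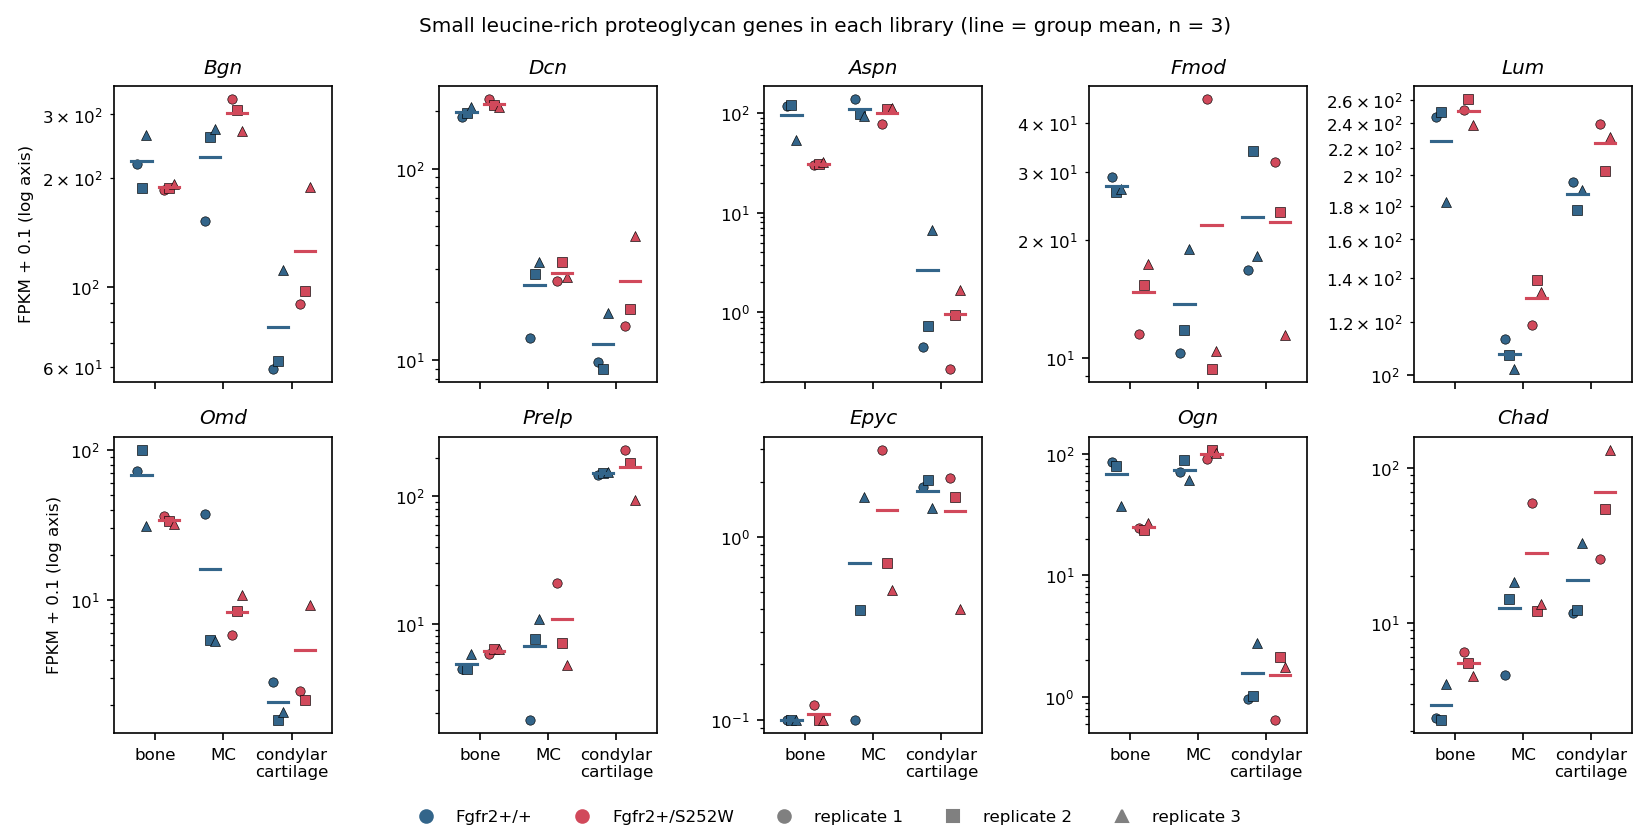
FPKM plus 0.1 on a log axis for each of the 10 genes (1 panel each, with its own scale) in the 18 libraries, by tissue, with blue for Fgfr2+/+, red for Fgfr2+/S252W, a symbol for each replicate and a line for the mean of 3. Aspn and Ogn drop to 6.69 FPKM or less in condylar cartilage, where Prelp lies at 93.5 FPKM or more.

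As shares of the summed FPKM of the 10 genes, Dcn made up 25.1% ± 4.22 in bone but 3.98% ± 1.00 in MC and 3.18% ± 1.59 in condylar cartilage (SD, n = 6). Bgn made up 39.7% ± 5.85 in MC, and Prelp 29.4% ± 8.31 in condylar cartilage against 0.656% ± 0.167 in bone. Lum (18.1% ± 2.07), Aspn (16.3% ± 5.02) and Ogn (13.1% ± 1.93) gave MC much of the rest. The summed FPKM was 813 to 965 in Fgfr2+/+ and 761 to 780 in Fgfr2+/S252W bone, 538 to 619 and 683 to 779 in MC, and 445 to 538 and 586 to 710 in condylar cartilage.

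**Figure D2:**
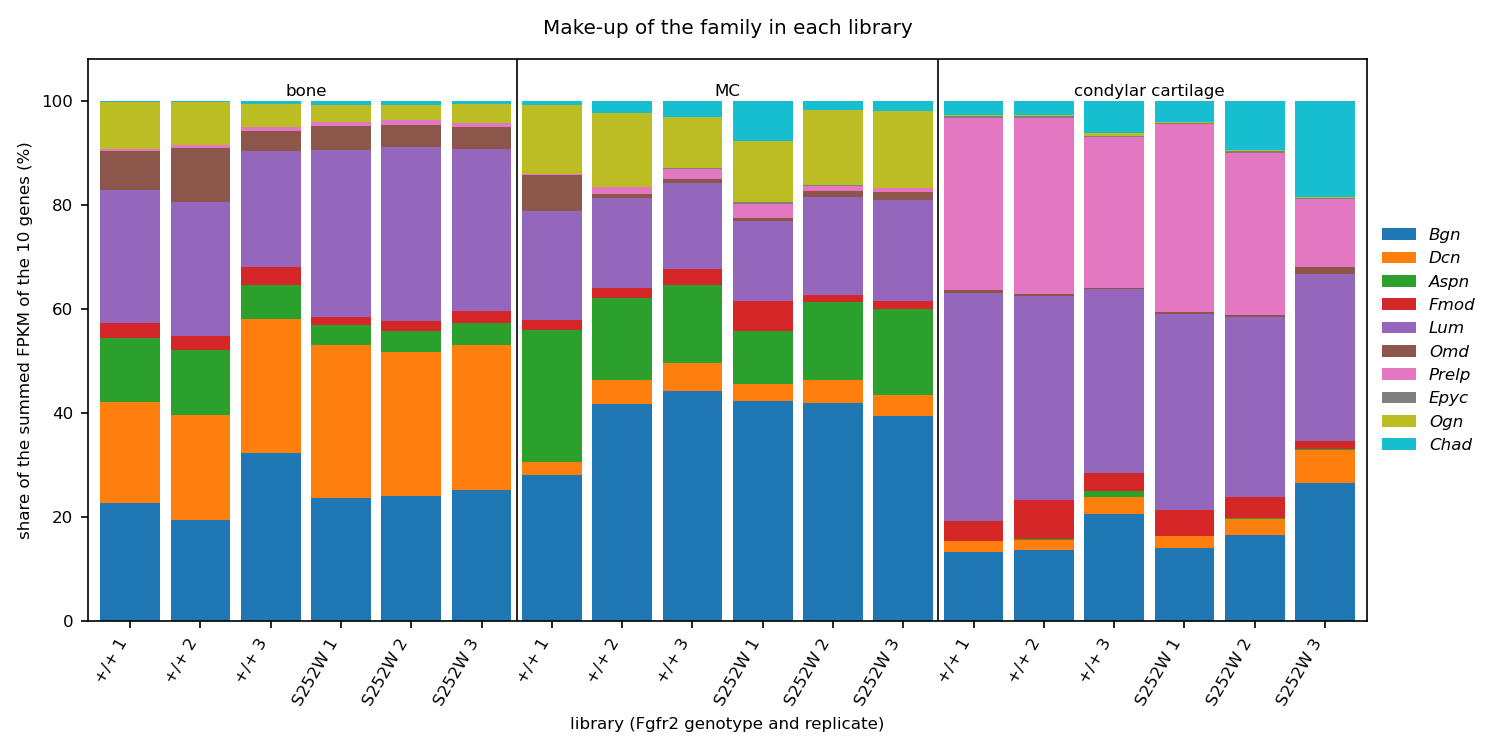
Share of the summed FPKM of the 10 genes (%) taken by each gene in each library, with libraries grouped by tissue and named by Fgfr2 genotype and replicate. Dcn is broad in bone (19.4 to 29.5%), Bgn in MC (28.2 to 44.3%) and Prelp in condylar cartilage (13.2 to 36.2%).

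Differences between tissues were tested within embryos with limma, averaged over the genotypes. From bone to MC, 3 of the 9 genes were higher in bone and 3 lower, where 24.9% of all 11469 genes were higher and 24.6% lower. From bone to condylar cartilage, 5 were higher in bone and 2 lower, against 24.3% and 22.7% of all genes. From condylar cartilage to MC, 2 were higher in condylar cartilage and 5 lower, against 28.6% and 29.1%. The median log2 fold change of the 9 genes was -0.34 for bone minus MC, 1.13 for bone minus condylar cartilage and -0.63 for condylar cartilage minus MC, and that of all genes lay between -0.01 and 0.00. With the 2 MC libraries of replicate 1 left out, 6, 7 and 9 members were called in these comparisons, where 5118, 5756 and 6114 of 11473 genes were. With the 2 condylar libraries of replicate 3 left out, 7, 7 and 7 members and 5791, 4948 and 6239 of 11588 genes were called. Both were chosen after seeing the data.

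Dcn, which binds type I collagen, was far higher in bone than in MC or condylar cartilage. It stood at 187, 195 and 210 FPKM in Fgfr2+/+ bone, 12.9, 28.0 and 32.4 FPKM in Fgfr2+/+ MC and 9.63, 8.89 and 17.5 FPKM in Fgfr2+/+ condylar cartilage. Fgfr2+/S252W embryos had 230, 215 and 211 FPKM in bone, 25.8, 32.5 and 27.0 FPKM in MC and 14.9, 18.3 and 44.4 FPKM in condylar cartilage. No bone library overlapped an MC or condylar cartilage library in either genotype. Bone exceeded MC by 8.32-fold (3.06 on the log2 scale with an SE of 0.21, limma adjusted p = 1.09e-08), which was seen in 6 of 6 embryos. Bone exceeded condylar cartilage by 3.69 ± 0.21 on the log2 scale (limma adjusted p = 4.73e-10), again in 6 of 6 embryos. The lower level in condylar cartilage than in MC (-0.63 ± 0.21, limma adjusted p = 0.0167) was seen in 5 of 6 embryos and was lost when any of 7 single libraries was left out, with values of -0.84 to -0.46 over all libraries left out in turn and a limma adjusted p of up to 0.0805. These were replicates 1 and 2 of Fgfr2+/S252W MC and of Fgfr2+/S252W condylar cartilage, replicates 2 and 3 of Fgfr2+/+ MC and replicate 2 of Fgfr2+/+ condylar cartilage.

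Bgn, a ligand of TGF-β and BMP factors in bone matrix, was lowest in condylar cartilage. Levels ran from 185 to 263 FPKM in bone (median 191), from 152 to 330 FPKM in MC (median 272) and from 59.1 to 189 FPKM in condylar cartilage (median 93.5). The condylar range met that of bone only through Fgfr2+/S252W replicate 3, the library with the most osteoblast markers. Bone exceeded condylar cartilage by 1.13 ± 0.16 on the log2 scale (limma adjusted p = 1.89e-05) in 6 of 6 embryos, and MC exceeded it by 2.75-fold (condylar cartilage minus MC -1.46 ± 0.16, limma adjusted p = 5.87e-07). Bone and MC differed by -0.34 ± 0.16 (limma adjusted p = 0.0903), and this passed the threshold without Fgfr2+/S252W MC replicate 3 (-0.45), Fgfr2+/S252W condylar cartilage replicate 3 (-0.32), Fgfr2+/+ bone replicate 1 (-0.44) or Fgfr2+/+ MC replicate 1 (-0.42). It also passed in the fit of these 2 tissues alone (-0.35, limma adjusted p = 0.0401) and, in a fit added after seeing the data, without both condylar libraries of replicate 3 (-0.33, limma adjusted p = 0.0251).

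Lum, the core protein of a keratan sulfate proteoglycan, varied little within a tissue. It ran from 182 to 260 FPKM in bone (median 247), from 102 to 139 FPKM in MC (median 116) and from 177 to 239 FPKM in condylar cartilage (median 199). MC lay below the other tissues with no overlap. Bone exceeded MC by 1.00 ± 0.10 on the log2 scale (limma adjusted p = 9.23e-07), condylar cartilage exceeded MC by 0.79 ± 0.10 (limma adjusted p = 3.74e-06), and each held in 6 of 6 embryos. Bone and condylar cartilage differed by 0.21 ± 0.10 (95% interval -0.00 to 0.42, limma adjusted p = 0.101). This passed the threshold without a filter on low values (0.24, limma adjusted p = 0.016), with sample quality weights (0.28, limma adjusted p = 0.00891) and without Fgfr2+/+ bone replicate 3 (0.28, limma adjusted p = 0.0339).

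Aspn, a class I member without glycosaminoglycan chains that binds TGF-β and collagen, was nearly absent from condylar cartilage. It stood there at 0.352, 0.637 and 6.69 FPKM in Fgfr2+/+ and 0.171, 0.843 and 1.59 FPKM in Fgfr2+/S252W embryos, on 6 to 174 fragments. In MC it stood at 137, 97.9 and 93.1 FPKM in Fgfr2+/+ and 78.4, 110 and 113 FPKM in Fgfr2+/S252W embryos. Fgfr2+/+ bone had 117, 120 and 53.1 FPKM and Fgfr2+/S252W bone 29.8, 30.6 and 32.4 FPKM. Bone and MC of Fgfr2+/+ embryos thus overlapped, while all Fgfr2+/S252W bone libraries lay below all MC libraries. Condylar cartilage was lower than MC by 106-fold (log2 fold change -6.72 ± 0.44, limma adjusted p = 1.3e-09) and lower than bone by 53.6-fold (bone minus condylar cartilage 5.74 ± 0.50, limma adjusted p = 6.47e-08), both in 6 of 6 embryos. Without Fgfr2+/+ condylar cartilage replicate 3, which has the 6.69 FPKM, these were -7.62 and 6.65 on the log2 scale.

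Ogn, or osteoglycin, followed the same order as its neighbour Aspn. Condylar levels were 0.858, 0.916 and 2.66 FPKM in Fgfr2+/+ and 0.554, 2.03 and 1.67 FPKM in Fgfr2+/S252W embryos. MC levels were 70.5, 88.3 and 61.2 FPKM in Fgfr2+/+ and 91.2, 107 and 101 FPKM in Fgfr2+/S252W embryos. In bone, Fgfr2+/+ embryos had 85.7, 79.9 and 36.9 FPKM and Fgfr2+/S252W embryos 24.6, 23.4 and 27.1 FPKM. The tissue order was bone and MC far above condylar cartilage, with the bone of mutant embryos between. Condylar cartilage was lower than MC by 67.0-fold (-6.07 ± 0.28, limma adjusted p = 4.11e-11) and lower than bone by 31.4-fold (bone minus condylar cartilage 4.97 ± 0.33, limma adjusted p = 2.18e-09).

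Averaged over the genotypes, bone was also lower than MC in Aspn (-0.98 ± 0.24, limma adjusted p = 0.00259) and in Ogn (-1.10 ± 0.17, limma adjusted p = 5.18e-05), each in 5 of 6 embryos. In the 3 Fgfr2+/+ embryos alone these differences were -0.25 (limma adjusted p = 0.668) and -0.19 (limma adjusted p = 0.636). The Aspn difference also missed the threshold in edgeR (adjusted p = 0.12) and DESeq2 (adjusted p = 0.24).

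Omd, or osteoadherin, a keratan sulfate proteoglycan of mineralized matrix, was highest in bone. Fgfr2+/+ embryos had 72.4, 99.8 and 31.1 FPKM in bone, 37.1, 5.29 and 5.18 FPKM in MC and 2.75, 1.49 and 1.68 FPKM in condylar cartilage. Fgfr2+/S252W embryos had 36.1, 33.3 and 32.0 FPKM in bone, 5.75, 8.39 and 10.6 FPKM in MC and 2.37, 2.04 and 9.15 FPKM in condylar cartilage. Bone lay above MC in each genotype except for the MC value of 37.1 FPKM, which exceeded the lowest Fgfr2+/+ bone value. It belongs to the library with the most osteoblast markers in MC (1180 CPM), and the high condylar value of 9.15 FPKM to the one with the most in condylar cartilage (11500 CPM). Their part in the result was not tested. Bone exceeded MC by 4.30-fold (2.10 ± 0.32, limma adjusted p = 4.57e-05) and condylar cartilage by 17.5-fold (4.13 ± 0.43, limma adjusted p = 5.53e-07), in 6 of 6 embryos each, and condylar cartilage was below MC (-2.02 ± 0.39, limma adjusted p = 0.000266). Without Fgfr2+/+ MC replicate 1, bone exceeded MC by 2.77 on the log2 scale and condylar cartilage minus MC was -1.32.

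Prelp, which binds collagen and the heparan sulfate proteoglycan perlecan, ran the other way. Condylar levels were 147, 153 and 156 FPKM in Fgfr2+/+ and 230, 183 and 93.5 FPKM in Fgfr2+/S252W embryos, against 4.29 to 6.23 FPKM in bone. MC stood at 1.67, 7.46 and 10.8 FPKM in Fgfr2+/+ and 20.9, 6.91 and 4.60 FPKM in Fgfr2+/S252W embryos. Within MC the lowest and the highest value belong to the libraries with the fewest (379 CPM) and the most (2190 CPM) chondrocyte markers. Condylar cartilage exceeded bone by 29.9-fold (bone minus condylar cartilage -4.90 ± 0.26, limma adjusted p = 1.8e-10) and MC by 22.0-fold (4.46 ± 0.31, limma adjusted p = 2.54e-09), each in 6 of 6 embryos. Bone and MC differed by -0.44 (limma adjusted p = 0.303), and by -0.81 without Fgfr2+/+ MC replicate 1 (limma adjusted p = 0.0157).

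Chad, which binds type II collagen and an integrin of chondrocytes, was lowest in bone. Bone levels were 2.31, 2.27 and 3.93 FPKM in Fgfr2+/+ and 6.40, 5.44 and 4.40 FPKM in Fgfr2+/S252W embryos, and MC levels 4.48, 14.1 and 18.4 FPKM and 59.3, 11.9 and 13.1 FPKM. Condylar cartilage had 11.5, 12.1 and 33.0 FPKM in Fgfr2+/+ and 25.8, 54.6 and 131 FPKM in Fgfr2+/S252W embryos. MC and condylar cartilage overlapped, and the highest MC value again belongs to the MC library with the most chondrocyte markers. Bone was below MC (-2.06 ± 0.58, limma adjusted p = 0.00723) and below condylar cartilage by 8.11-fold (-3.02 ± 0.52, limma adjusted p = 0.00013), in 6 of 6 embryos each. Bone minus MC was -1.45 without Fgfr2+/S252W MC replicate 1, and bone minus condylar cartilage -3.63 without Fgfr2+/S252W condylar cartilage replicate 1. Condylar cartilage and MC differed by 0.96 ± 0.55 (95% interval -0.21 to 2.12, limma adjusted p = 0.151), which passed the threshold in edgeR (1.07, adjusted p = 0.0461). Without Fgfr2+/S252W MC replicate 1 that difference was 1.67 (limma adjusted p = 0.0024), and without Fgfr2+/S252W condylar cartilage replicate 1 it was 1.52 (limma adjusted p = 0.00211).

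Fmod, a keratan sulfate proteoglycan that acts in collagen cross-linking and is abundant in tendon, passed the test in no pair of tissues. Its levels ran from 11.4 to 29.0 FPKM in bone, from 9.26 to 45.8 FPKM in MC and from 11.3 to 33.7 FPKM in condylar cartilage, and all overlapped. The highest, 45.8 FPKM, was in Fgfr2+/S252W MC replicate 1, and without it bone exceeded MC by 0.79 (limma adjusted p = 0.028) and condylar cartilage exceeded MC by 0.92 (limma adjusted p = 0.00711). Without Fgfr2+/S252W bone replicate 1, bone exceeded MC by 0.72, after which the difference passed the threshold, and in Fgfr2+/+ embryos alone by 1.08 (limma adjusted p = 0.0167). In those embryos alone condylar cartilage also exceeded MC, by 0.74 (limma adjusted p = 0.045). Epyc, or epiphycan, a proteoglycan of growth cartilage, had 0 or 1 fragment in each bone library. It had 0, 4 and 21 fragments in Fgfr2+/+ MC, 55, 7 and 6 in Fgfr2+/S252W MC, and 6 to 76 in condylar cartilage. It was not detectable in 5 of 6 bone libraries at this depth, and its highest FPKM anywhere was 2.87, in Fgfr2+/S252W MC replicate 1.

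**Figure D3:**
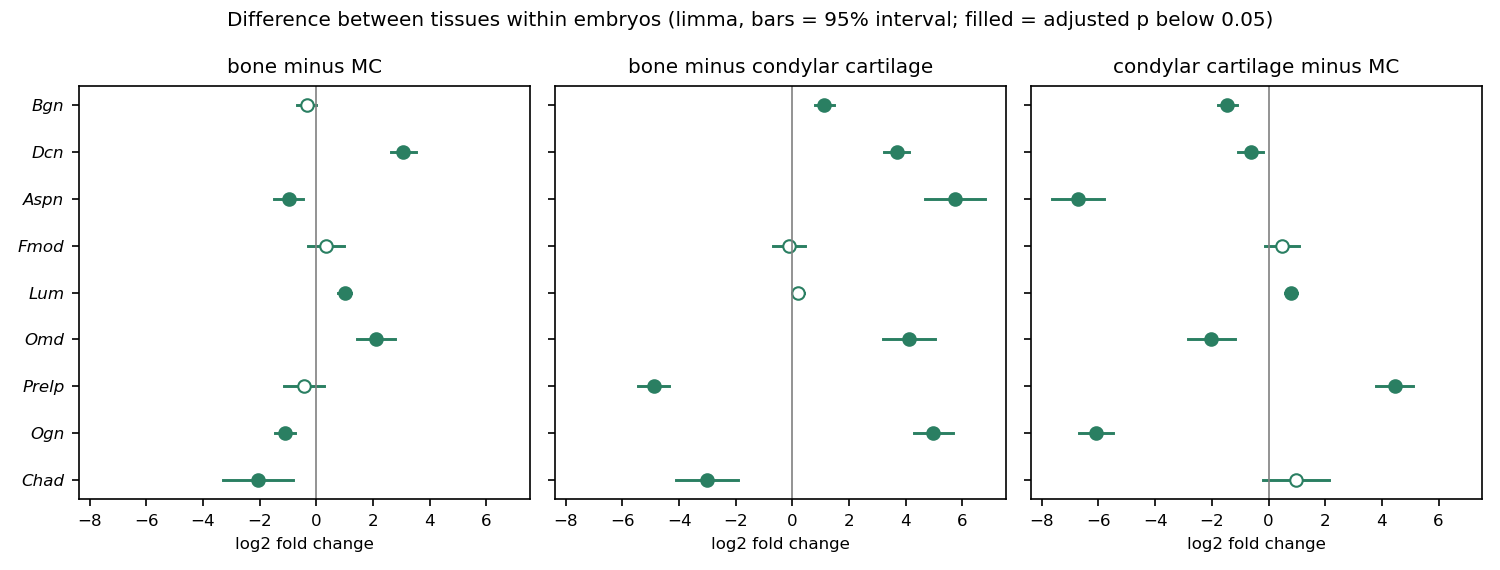
Log2 fold change between tissues within embryos for the 9 genes tested, from limma with a block for embryo (points), with 95% intervals (bars) and filled points for an adjusted p below 0.05. Aspn, Omd and Ogn lie far to the right and Prelp and Chad to the left for bone minus condylar cartilage.

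The effect of the mutation was first examined in bone. Aspn and Ogn were lower in all 3 Fgfr2+/S252W bone libraries than in any Fgfr2+/+ one, at the values given above. In the fit over all 18 libraries the log2 fold change was -1.55 ± 0.33 for Aspn (95% interval -2.23 to -0.86, 2.92-fold, limma adjusted p = 0.0763) and -1.33 ± 0.26 for Ogn (95% interval -1.87 to -0.79, 2.52-fold, limma adjusted p = 0.0545). By p they ranked 20 and 11 of 11469 genes, but 0 of the 9 members passed the adjusted threshold of 0.05, where 10 genes (0.0872%) did. The study itself lists Aspn among the genes with lower expression in Fgfr2+/S252W mandibular bone. At an unadjusted p below 0.05 there were 4 members (Aspn, Fmod, Omd and Ogn) and 8.13% of all genes. edgeR and DESeq2 also called 0 of the 9, with 4 and 18 of all genes.

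A fit of the 6 bone libraries alone, which takes the spread from bone only, called 3 of the 9 members where 141 of 12322 genes (1.14%) were called. These were Aspn (-1.56 ± 0.25, limma adjusted p = 0.0151), Ogn (-1.35 ± 0.25, limma adjusted p = 0.0298) and Fmod (-0.93 ± 0.15, limma adjusted p = 0.0182). Their fold changes were close to those of the larger fit, while the SE of Fmod went from 0.39 to 0.15. Fmod stood at 29.0, 26.5 and 27.0 FPKM in Fgfr2+/+ and at 11.4, 15.3 and 17.3 FPKM in Fgfr2+/S252W bone, so that the groups did not overlap and the 3 Fgfr2+/+ libraries were alike.

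The chromosome 13 neighbours differed among the Fgfr2+/+ bone libraries. Replicate 3 had far less Aspn and Ogn than replicates 1 and 2, yet stayed above the mutant libraries, and its Omd (31.1 FPKM) lay below all 3 mutant values. The log2 fold change of Omd was -0.83 ± 0.39 (95% interval -1.65 to -0.02, limma adjusted p = 0.61), and Omd was called lower with sample quality weights (limma adjusted p = 0.0145). In the fits of bone alone added after seeing the data, it was called without Fgfr2+/+ replicate 3 (-1.35, limma adjusted p = 0.000347) and with the replicate block (-0.87, limma adjusted p = 0.0195). Without Fgfr2+/+ bone replicate 3 the fit over the rest gave -1.94 for Aspn (limma adjusted p = 0.00639), -1.73 for Ogn (limma adjusted p = 0.00116) and -1.33 for Omd (limma adjusted p = 0.084), and called 2 of the 9 members, Aspn and Ogn, and 91 of 11226 genes. The same 2 were called without Fgfr2+/S252W condylar cartilage replicate 3 (31 of 11336 genes), Fgfr2+/+ MC replicate 1 (39 of 11272) or Fgfr2+/+ condylar cartilage replicate 3 (15 of 11303), and Ogn alone without Fgfr2+/S252W condylar cartilage replicate 1 (10 of 11341). The log2 fold changes ranged from -1.94 to -1.35 for Aspn and from -1.73 to -1.11 for Ogn when each library was left out in turn.

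**Figure D4:**
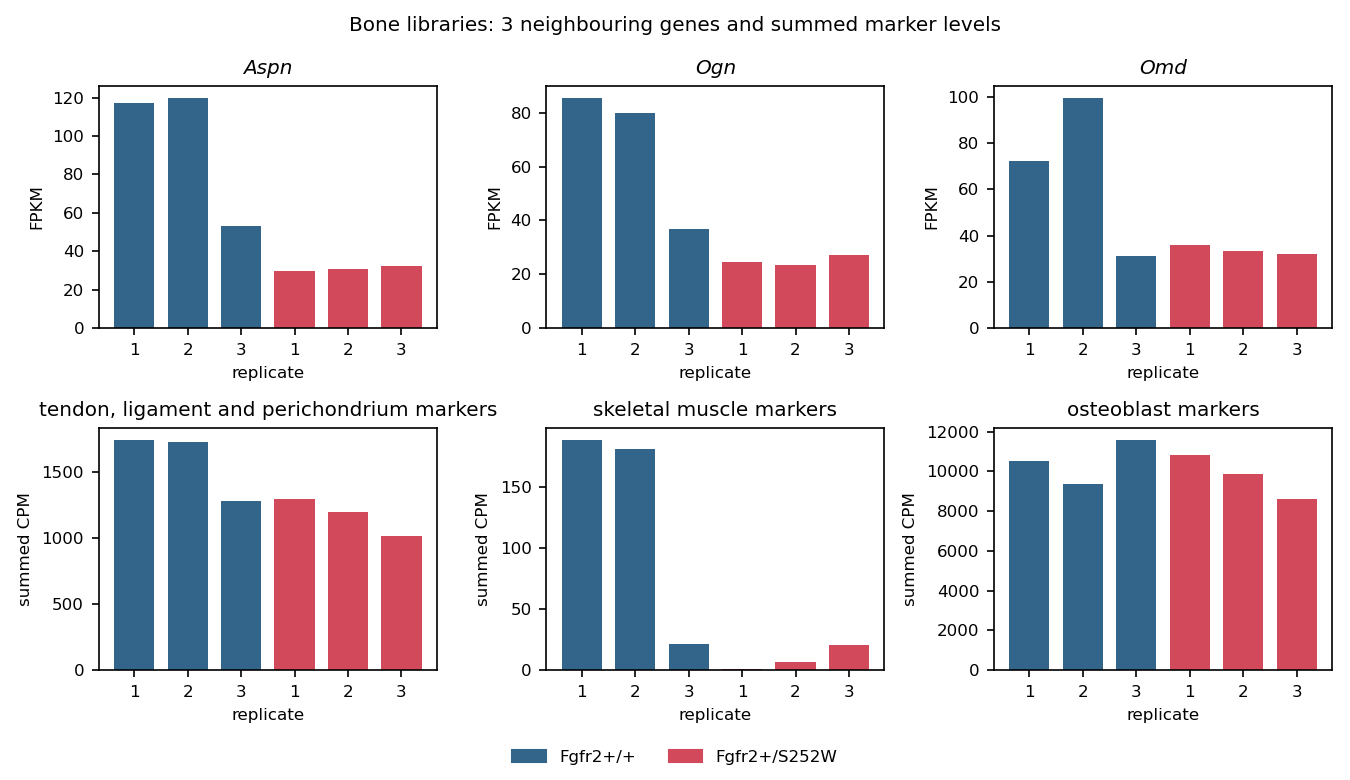
FPKM of Aspn, Ogn and Omd (top) and summed CPM of 3 marker lists (bottom) in the 6 bone libraries, blue for Fgfr2+/+ and red for Fgfr2+/S252W, 1 bar per library. Fgfr2+/+ replicate 3 is the lowest Fgfr2+/+ bar for the 3 genes and for the tendon and muscle lists, and the highest for the osteoblast list.

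Other measures moved with these genes in bone. The 9 markers of tendon, ligament and perichondrium summed to 1750, 1730 and 1280 CPM in Fgfr2+/+ and 1300, 1200 and 1020 CPM in Fgfr2+/S252W bone, with Postn at 222 to 384 and 153 to 204 FPKM. The 6 skeletal muscle markers summed to 189, 181 and 21.0 CPM against 0.973, 6.69 and 20.7 CPM, and mitochondrial genes took 36.0, 34.8 and 20.4% of fragments against 23.6, 23.4 and 23.4%. In each, Fgfr2+/+ replicate 3 stood nearer to the mutant libraries than replicates 1 and 2 did. Osteoblast markers summed to 10500, 9340 and 11600 CPM against 10800, 9850 and 8590 CPM and overlapped. Osteoclast markers were 773 to 1010 against 1450 to 2020 CPM, and red blood cell markers 1250 to 1500 against 313 to 595 CPM. Smooth muscle markers summed to 34.6 to 48.1 against 18.3 to 22.3 CPM, and macrophage markers to 63.2 to 84.5 against 99.4 to 138 CPM. The 3 macrophage markers kept by the filter had a median log2 fold change of -1.68 by genotype in bone, with 0 called. The markers of that list thus did not all rise with their sum. Gm42418, a gene that overlaps ribosomal RNA, took 8.57 to 9.33% of fragments against 5.58 to 6.49%. No marker of these lists was at 0 in all 3 bone libraries of a genotype. Their part in the differences of Aspn, Ogn, Omd and Fmod was not tested.

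The remaining members were called neither in the fit over 18 libraries nor in that of bone alone. Chad was higher in all 3 mutant libraries, by 0.93 ± 0.83 (limma adjusted p = 0.859), on 52 to 210 fragments. Of the fits added after seeing the data, bone alone without Fgfr2+/+ bone replicate 3 gave 1.20 for Chad (limma adjusted p = 0.0143) and bone alone with the replicate block 0.90 (limma adjusted p = 0.0495). Dcn was higher in all 3 mutant libraries by 0.15 ± 0.25 (95% interval -0.38 to 0.67). For Bgn the difference was -0.23 ± 0.25, for Lum 0.16 ± 0.13 and for Prelp 0.34 ± 0.49, with adjusted p in limma of 0.838 or more. Libraries of the genotypes did not overlap for 5 of the 9 genes (Aspn, Fmod and Ogn lower, Dcn and Chad higher), where the share among all genes was 20.5%. The median log2 fold change of the 9 was -0.23, against 0.00 for all genes.

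In MC, 0 of the 9 genes and 0% of all genes passed the test by limma, 0 members had an unadjusted p below 0.05 (15.4% of all genes did), and edgeR and DESeq2 called 0 members, but 90 and 423 of all genes. Lum was at 113, 107 and 102 FPKM in Fgfr2+/+ and 119, 139 and 133 FPKM in Fgfr2+/S252W MC, which is a difference of 0.27 ± 0.14 on the log2 scale (limma adjusted p = 0.371). Ogn was higher by 0.46 ± 0.27 (limma adjusted p = 0.424). These 2 genes were the ones without overlap between the genotypes, where 13.5% of all genes had none. Macrophage markers, at 22.0, 61.0 and 46.9 CPM in Fgfr2+/+ and 95.1, 88.9 and 66.0 CPM in Fgfr2+/S252W MC, did not overlap either, nor did osteoclast markers, at 213, 107 and 81.4 against 60.8, 56.5 and 65.8 CPM. The osteoclast gene Calcr was at 0 in the Fgfr2+/+ libraries, and tendon, ligament and perichondrium markers overlapped (1550 to 1760 against 1370 to 1720 CPM). Their part in the differences of Lum and Ogn was not tested. Aspn differed by -0.14 ± 0.34 in MC (95% interval -0.85 to 0.56).

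Several MC values turned on the libraries of replicate 1. With all libraries, Prelp was higher in mutant MC by 1.11 ± 0.60, Chad by 1.31 ± 0.74 and Fmod by 0.46 ± 0.50, and Omd differed by -0.68 ± 0.73. With replicate 1 of both genotypes left out, a step added after seeing the data, these became -0.68, -0.35, -0.59 and 0.87. Lum and Ogn kept their sign.

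In condylar cartilage, limma called 0 of the 9 genes and 0% of all genes. At an unadjusted p below 0.05 there were 3 members (Bgn, Dcn and Chad) and 3.06% of all genes, and edgeR and DESeq2 called 0 members, with 0 and 3 of all genes. Chad was higher in mutant embryos by 1.73 ± 0.54 (95% interval 0.61 to 2.85, 3.32-fold, limma adjusted p = 0.998), the rank 22 by p among 11469 genes, with 1 mutant library (25.8 FPKM) below the highest Fgfr2+/+ one (33.0 FPKM). Dcn was higher by 0.95 ± 0.35 and Bgn by 0.66 ± 0.27 (limma adjusted p = 0.998 each). With each library left out in turn, the difference ran from 1.17 to 2.34 for Chad, 0.53 to 1.28 for Dcn and 0.33 to 0.94 for Bgn. Bgn stood at 59.1, 62.3 and 111 FPKM in Fgfr2+/+ and 89.6, 97.5 and 189 FPKM in Fgfr2+/S252W condylar cartilage. For Bgn, Dcn and Chad alike, replicate 3 was the highest library of each genotype, and these are the libraries with the most osteoblast markers (7390 and 11500 CPM). They also held the most hypertrophic chondrocyte markers of their genotype (4920 CPM against 2580 and 2750 CPM in Fgfr2+/+, and 3790 CPM against 1500 and 1920 CPM in Fgfr2+/S252W embryos), the most Gm42418 (20.1 and 20.2% of fragments against 10.9 to 14.3%) and the lowest TMM factors (1.04 and 0.896 against 1.16 to 1.27). Their part in the result was not tested. Lum, at 195, 177 and 190 against 239, 203 and 228 FPKM, was the one member without overlap (0.25 ± 0.13, limma adjusted p = 0.998), where 9.75% of all genes had none. Mitochondrial genes took 19.4, 23.6 and 20% of fragments in Fgfr2+/+ and 23.6, 24.8 and 27.7% in Fgfr2+/S252W condylar cartilage. The part of this share in the differences was not tested. Aspn, Omd and Ogn were on few fragments in this tissue (6 to 174, 28 to 111 and 21 to 75), and their intervals were wide, at -3.21 to 1.22, -1.22 to 2.64 and -1.57 to 1.31.

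**Figure D5:**
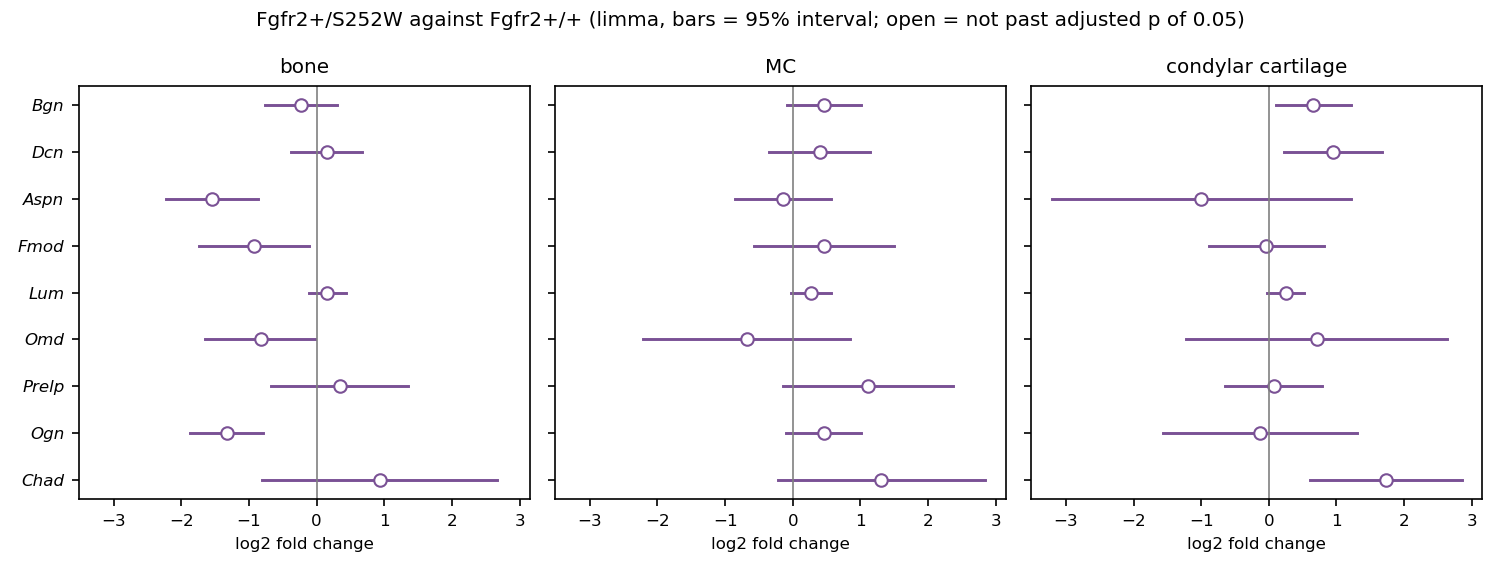
Log2 fold change of Fgfr2+/S252W against Fgfr2+/+ for the 9 genes tested in each tissue, from limma over 18 libraries (points), with 95% intervals (bars). All points are open since 0 passed an adjusted p of 0.05, and Aspn and Ogn in bone lie farthest below 0 relative to their intervals.

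Whether the effect of the mutation differed between tissues was tested as an interaction within embryos. For bone against MC, limma called 0 members (4 of all genes, 0.0349%), with 4 members and 9.12% of all genes at an unadjusted p below 0.05. Ogn came nearest: it was lower in mutant bone and higher in mutant MC, with a difference of -1.81 ± 0.34 between the effects (95% interval -2.53 to -1.09, limma adjusted p = 0.114), the rank 6 by p. For Aspn the difference was -1.43 ± 0.49 (limma adjusted p = 0.414). For the other pairs limma called 0 members and 0% of all genes, with 2 members (2.86% of all genes) at an unadjusted p below 0.05 for bone against condylar cartilage and 1 member (10.4%) for condylar cartilage against MC. edgeR and DESeq2 called 0 members in each.

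Genes that build, bind or cut these proteoglycans were followed as lists, and by genotype limma called 0 of their genes in each tissue. Between tissues, the enzymes of the linkage region and of chondroitin and dermatan sulfate chains did not all run the same way. Of 20 tested, 14 were lower in bone than in condylar cartilage and 3 higher, and 13 were higher in condylar cartilage than in MC and 3 lower. As given for the members, 22.7% and 24.3% of all genes were lower and higher in the first of these comparisons, and 28.6% and 29.1% higher and lower in the second. Csgalnact1, which starts chondroitin chains, was lower in bone than in condylar cartilage (-4.14 ± 0.23, limma adjusted p = 2.83e-10), as was Fam20b, a kinase of the linkage sugar xylose (-2.86 ± 0.16, limma adjusted p = 3.33e-10). Chst11, a chondroitin sulfotransferase, was higher in condylar cartilage than in MC (3.72 ± 0.23, limma adjusted p = 9.61e-10). The epimerase Dse (-1.26 ± 0.17, limma adjusted p = 6.01e-06), the dermatan sulfotransferase Chst14 (-0.84 ± 0.17, limma adjusted p = 0.000473) and the uronyl sulfotransferase Ust (-1.27 ± 0.24, limma adjusted p = 0.00022) were the 3 lower in condylar cartilage than in MC. They are named, outside the rule for named genes, because they ran against most of the list. Chst14 (0.59) and Ust (1.80) were also higher in bone than in condylar cartilage, as was the chondroitin sulfotransferase Chst13 (1.27), while Dse (0.36) and the second epimerase, Dsel (-0.13), were not called there. Of 3 keratan sulfate enzymes tested, 3 were lower in condylar cartilage than in MC, with Chst2 at -3.61 ± 0.36 (limma adjusted p = 1.77e-07). From bone to MC, 6 of the 20 chondroitin enzymes were higher in bone and 4 lower, against 24.9% and 24.6% of all genes.

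Of 7 proteases known to process such proteoglycans, all 7 were higher in bone than in condylar cartilage, where 24.3% of all genes were, with Mmp13, a collagenase, at 6.22 ± 0.51 (limma adjusted p = 2.61e-08) and Adamts4, an aggrecanase, at 2.97 ± 0.29 (limma adjusted p = 2.75e-07). In condylar cartilage 6 of them were lower than in MC, and 1, Mmp13, was higher. Of 11 growth factors and receptors that class I members bind, 7 were higher in bone than in condylar cartilage and 1 lower, against 24.3% and 22.7% of all genes. The receptor Met was lower in condylar cartilage than in MC (-6.52 ± 0.34, limma adjusted p = 1.27e-10), as was Egfr (-5.73 ± 0.40, limma adjusted p = 3.21e-09), while Tgfb2 was lower in bone than in condylar cartilage (-2.19 ± 0.16, limma adjusted p = 7.99e-09). Of 12 collagens tested, 10 were higher in condylar cartilage than in MC and 2 lower, where 28.6% and 29.1% of all genes were, and between bone and condylar cartilage 4 were higher in bone and 7 lower (24.3% and 22.7% of all genes). Among relatives of the family outside these 10 genes, Ecm2 was lower in condylar cartilage than in MC (-4.21 ± 0.33, limma adjusted p = 9.44e-09), and Chadl lower in bone than in condylar cartilage (-5.42 ± 0.62, limma adjusted p = 1.41e-06).

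Across the 18 libraries, which share tissue and depth differences, Aspn and Ogn had a Pearson r of 0.98 on log2 CPM, and after subtracting the 6 group means r was 0.90. For Omd, r over 18 libraries was 0.67 with Aspn and 0.65 with Ogn, and after subtracting the group means 0.29 and 0.21. Over the 6 bone libraries, with the genotypes pooled, Omd had an r of 0.90 with Aspn and 0.91 with Ogn. Prelp ran opposite to Aspn (r = -0.92) and to Ogn (r = -0.91), with r of -0.32 and -0.22 after subtracting the group means. The genes most like Aspn were Nrep, Mdfic and Nfib (r = 0.98 each), and those most like Ogn were Mdfic, Nfib and Aoc3 (r = 0.98 each). Prelp was most like Hapln1, the link protein of cartilage (r = 0.99), Csgalnact1 (r = 0.98) and Stk39 (r = 0.98). Dcn was most like Serpinf1 (r = 0.96), Mtss1 (r = 0.96) and S1pr3 (r = 0.95), and Omd most like Adamts9 (r = 0.96), Meis3 (r = 0.94) and Sh3bgrl (r = 0.94). Bgn was most like Dab2ip (r = 0.95), Sorbs3 (r = 0.95) and Rara (r = 0.94), and Lum most like Rpl7a, Arpc2 and Erp29 (r = 0.95 each). Chad reached 0.90 with St3gal3, 0.90 with Baz2a and 0.88 with Tgm2, and Fmod no more than 0.76, with Bpgm.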

How the data were processed

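RNA from the 18 libraries was amplified (NuGEN Ovation) before paired-end sequencing. With STAR the authors aligned reads to mm10, and they deposited raw counts per gene from featureCounts 1.5.0-p1, counting fragments without regard to strand on the Ensembl annotation of GRCm38, release 75, without nonsense-mediated decay transcripts. The submitters' processing notes also name cutadapt, RSEM and limma. Whether duplicates were removed is not given in the sources used here. Amplification favours some transcripts, so levels of different genes are compared only roughly.

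Groups and embryos were taken from the labels, in which a code shared by 3 libraries marks an embryo, and deviations of the same embryo in 2 tissues correlated between -0.09 and 0.11. A gene was kept when 50% or more of the libraries exceeded 1 FPKM. Counts were scaled with TMM (edgeR 4.0.16) and fitted with voom (prior count 0.5) and limma 3.58.1 in R 4.3.3. Genotype was tested with 6 group means over 18 libraries, and tissues and interactions with embryo as a fixed block. P-values were two-sided and adjusted by Benjamini-Hochberg over all 11469 genes, with a threshold of 0.05. edgeR's quasi-likelihood test and DESeq2 1.42.0 were alternatives. On counts simulated with each tissue's own dispersion, limma made more false calls than its threshold allows in every comparison simulated except genotype in bone, and most for genotype in MC. Intervals are 95% limma intervals. The 10 genes, the gene lists, the rule for named genes (up to 3 called genes with the smallest p per list and comparison, and the 3 genes most correlated with each member) and the tests were chosen with earlier results of these data known. FPKM and CPM were computed here from the deposited counts and the annotated exon lengths.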

Additional observations from a re-analysis of the deposited data

Results flagged for a closer look

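Ogn was lower in every mutant bone library than in any Fgfr2+/+ bone library and higher in every mutant MC library than in any Fgfr2+/+ one, which is an opposite direction in the 2 tissues. The difference between the effects was -1.81 on the log2 scale and did not pass the test of the difference itself (limma adjusted p = 0.114).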

How the results depend on the processing

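Of 271 recomputed counts of members called, 19 rose to more than 1.5 times the count given, and of 1712 recomputed log2 fold changes of members 29 turned direction, 12 lost the call and 60 gained it. The genotype difference in bone depended most on the fit: against 0 members and 10 of all genes, filterByExpr called 1 member (21 of all genes), no filter 2 (53), sample quality weights 4 (589), the 6 bone libraries alone 3 (141), and leaving out single libraries 0 to 2 (0 to 91). A replicate block, which treats equal numbers of the genotypes as a pair, called 2 (Aspn, adjusted p = 0.0381, and Ogn, adjusted p = 0.0498, limma) and 12 of all genes. No label says that the numbers pair the embryos across genotypes. Deviations of same-numbered libraries correlated between -0.15 and 0.28. This cannot decide the pairing, since deviations of the same embryo in 2 tissues correlated only between -0.09 and 0.11. DESeq2 called 18 and edgeR 4 of all genes there, 423 and 90 in MC and 3 and 0 in condylar cartilage, where limma called 0. For the interactions DESeq2 called 68, 2 and 50 of all genes and edgeR 1, 0 and 0. The interaction of bone against MC called 1 member, Ogn, with those 2 tissues alone (-1.82, limma adjusted p = 0.0402, 5 of all genes), and 0 to 1 when single libraries were left out (1 without Fgfr2+/+ bone replicate 3 or Fgfr2+/+ condylar cartilage replicate 3, with 8 and 6 of all genes). The direction of Aspn and Ogn in bone was the same in each of these fits.

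Of the alternatives chosen after seeing the data, bone alone without Fgfr2+/+ replicate 3 called 5 members by genotype (1370 of all genes), bone alone with the replicate block 5 (539), and leaving out both MC libraries of replicate 1 or both condylar libraries of replicate 3 called 2 each (37 and 33). In condylar cartilage alone, the replicate block called 1 member (Chad, 1.83, limma adjusted p = 0.000572) and 6 of all genes, with the pairing not established. With both condylar libraries of replicate 3 left out the interaction of bone against MC called 1 member, Ogn (-1.83), and 10 of all genes. Without single libraries 6 to 8 members were called between bone and MC (4708 to 5664 of all genes) and 7 to 8 between bone and condylar cartilage (4590 to 5626). Between condylar cartilage and MC 6 to 8 were called (5916 to 6545).

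The values that turned direction were not called. With sample quality weights, the genotype difference was 0.01 for Aspn in MC, and 0.07 for Fmod and 0.43 for Ogn in condylar cartilage. Without a filter Fmod in condylar cartilage was 0.02, and with both condylar libraries of replicate 3 left out Fmod was 0.22 and Ogn 0.17. With both MC libraries of replicate 1 left out, the MC values were -0.02 for Dcn, 0.24 for Aspn, -0.59 for Fmod, 0.87 for Omd, -0.68 for Prelp and -0.35 for Chad. In Fgfr2+/+ embryos alone bone minus MC was 0.01 for Bgn and bone minus condylar cartilage 0.34 for Fmod. With single libraries left out, the MC genotype difference ranged from -0.09 to 0.65 for Dcn, -0.24 to 0.06 for Aspn, -0.37 to 0.84 for Fmod and -1.13 to 0.58 for Omd. In condylar cartilage it ranged from -1.88 to 0.18 for Aspn, -0.37 to 0.34 for Fmod, -0.21 to 0.44 for Prelp and -0.55 to 0.58 for Ogn, and bone minus condylar cartilage from -0.35 to 0.27 for Fmod. Without a filter the difference of Dcn between condylar cartilage and MC missed the threshold (-0.50, limma adjusted p = 0.0577). The cause of these changes was not tested, beyond the fewer libraries or other genes each fit holds. Epyc did not pass the filter of 1 FPKM, but with filterByExpr or no filter all 10 members were tested. Epyc was then called between bone and MC and between bone and condylar cartilage, on 0 or 1 fragment in each bone library. Those 2 fits called 7161 and 13018 of all genes between bone and MC and 7275 and 7996 between bone and condylar cartilage.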
